A study of Mus musculus with 8 samples.

Results

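Zdbf2, Eef1b2 and Ino80dos are neighbours on mouse chromosome 1, and these 3 genes of the 22810 in the deposited allele-specific table are described here. They were taken by their symbols. RNA had been sequenced with SMART-Seq2, a full-length protocol for very small samples, from single blastocysts at embryonic day 3.5 that came from natural matings and had not been cultured. In the forward cross the mother was C57BL/6 (B6) and the father Mus musculus castaneus (cast), with 3 embryos (numbers 1, 2 and 3). In the reverse cross the mother was cast and the father B6, with 5 embryos (numbers 1, 2, 3, 5 and 7). All 8 embryos were untreated F1 hybrids of wild-type strains, and the labels name neither the dam nor the litter, so that cross and litter cannot be told apart. A read was counted only where it covered a base that differs between B6 and cast, which makes it a B6 or a cast read, and, given the cross, a maternal or a paternal one. The reciprocal crosses serve to separate an effect of the parent (the allele changes strain between crosses) from an effect of the strain (the allele changes parent).

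Which allele of an imprinted gene is read depends on its parent of origin, because of marks that differ between the maternal and the paternal germ line. The marked allele need not be the allele that is read. At Zdbf2, a zinc finger gene known for its paternal expression and its role in growth after birth, a region near the upstream start acquires DNA methylation in oocytes. In the early embryo a long transcript, known as Liz or long isoform of Zdbf2, begins at that upstream start on the paternal chromosome, and Gpr1, a receptor for the adipokine chemerin, lies beside it on the opposite strand. Eef1b2 encodes a subunit of the nucleotide exchange factor that recharges the elongation factor eEF1A during translation, and Ino80dos is a long noncoding RNA that begins next to Ino80d, a subunit of the INO80 chromatin remodeller.

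In RefSeq on GRCm38.p6 (the mm10 assembly), Ino80dos spans chr1:63114471-63158295, Eef1b2 chr1:63176831-63180486 and Zdbf2 chr1:63200358-63314576, all 3 on the plus strand. Ino80dos ended 18.5 kb before Eef1b2, and Eef1b2 ended 19.9 kb before Zdbf2. GENCODE M21 places the start of Zdbf2 72.9 kb further downstream, so the RefSeq span includes the upstream start and the GENCODE span does not. The annotation used for counting is not given in the sources used here, so the Zdbf2 row may hold reads of 1 or of both starts. The spans of Zdbf2 and Gpr1 overlap by 22921 bases on opposite strands. Ino80dos shares 489 exonic bases with Ndufs1 and 431 with Ino80d, both on the opposite strand, and because the protocol does not mark strand, reads from these shared bases cannot be assigned to 1 strand.

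The sequences around the transcription starts are printed to show how the upstream start of Zdbf2 differs in its letters from the other starts of the locus. Each window holds 250 bases before and 50 after a start, from RefSeq (GRCm38.p6), and all 3 genes had at least 1 window. Capitals mark TGCCGC or its reverse complement GCGGCA, the core recognised in methylated form by ZFP57, the zinc finger protein that maintains germline imprints. The windows are on the plus strand at chr1:63200108-63200407 (Zdbf2, upstream start), chr1:63273019-63273318 (Zdbf2, downstream start), chr1:63176581-63176880 (Eef1b2) and chr1:63114221-63114520 (the first of 2 windows of Ino80dos).
Zdbf2 upstream start: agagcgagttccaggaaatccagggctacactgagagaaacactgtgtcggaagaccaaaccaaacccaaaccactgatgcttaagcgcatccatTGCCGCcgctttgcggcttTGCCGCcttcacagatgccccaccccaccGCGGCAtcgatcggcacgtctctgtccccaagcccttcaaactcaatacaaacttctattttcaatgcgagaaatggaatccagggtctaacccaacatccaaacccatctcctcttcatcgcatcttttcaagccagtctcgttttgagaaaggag
Zdbf2 downstream start: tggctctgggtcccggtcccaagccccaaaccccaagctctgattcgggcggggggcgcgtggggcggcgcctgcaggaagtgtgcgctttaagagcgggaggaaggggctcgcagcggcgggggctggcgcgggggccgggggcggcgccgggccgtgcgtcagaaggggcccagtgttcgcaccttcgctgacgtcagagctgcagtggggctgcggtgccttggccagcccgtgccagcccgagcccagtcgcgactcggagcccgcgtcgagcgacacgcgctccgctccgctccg
Eef1b2: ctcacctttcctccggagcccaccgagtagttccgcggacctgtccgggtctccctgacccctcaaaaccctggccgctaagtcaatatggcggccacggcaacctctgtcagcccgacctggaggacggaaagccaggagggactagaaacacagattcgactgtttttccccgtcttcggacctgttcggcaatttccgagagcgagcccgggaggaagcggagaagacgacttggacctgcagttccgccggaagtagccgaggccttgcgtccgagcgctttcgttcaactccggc
Ino80dos: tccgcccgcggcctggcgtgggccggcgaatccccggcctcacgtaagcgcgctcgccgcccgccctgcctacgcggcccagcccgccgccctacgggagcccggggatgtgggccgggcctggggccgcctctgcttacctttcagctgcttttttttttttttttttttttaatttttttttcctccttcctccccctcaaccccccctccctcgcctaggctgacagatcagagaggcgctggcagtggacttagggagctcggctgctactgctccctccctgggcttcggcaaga
The upstream window of Zdbf2 held the motif 3 times, and the other windows of the 3 genes held it 0 times. Of 32851 windows of all genes, 11.6% held the motif at least 1 time and 0.234% at least 3 times. The number of CpG dinucleotides was 15 in the upstream window of Zdbf2, 38 in its downstream window, 27 in that of Eef1b2 and 25 in the printed window of Ino80dos, against a median of 7. These are matches of letters, and no methylation or binding was measured in these embryos.

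Between 1060063 and 1632695 SNP-spanning reads were assigned per embryo, and 57.4 to 58.3% of them were B6 reads. All reads had been aligned to mm10, and the sources used here describe no alignment to a cast genome. Whether this adds to the B6 reads, of all genes or of Eef1b2, was not tested. All 6 trophectoderm markers, all 5 epiblast markers and 4 of the 5 primitive endoderm markers were read in every embryo. Trophectoderm marker reads summed to 903 per 1000000 reads in reverse embryo 1 and to 3659 to 4976 in the other 7 embryos. For the 9 markers of macrophages, a cell type that a blastocyst does not contain, the summed level was 861 per 1000000 reads in forward embryo 1, 40.8 and 56.4 in forward embryos 2 and 3, and 3.77 to 6.01 in the reverse embryos, where Ptprc and C1qa were at 0. In forward embryo 1, 1402 of these reads were maternal and 3 paternal. For the 3 genes, their window and the gene lists, values without forward embryo 1 or reverse embryo 1 are given where a call or a count of calls changed.

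Zdbf2 was read mainly from the paternal allele in both crosses. Forward embryo 1 had 1 maternal and 32 paternal reads, forward embryo 2 had 4 and 24, and forward embryo 3 had 6 and 22. Reverse embryo 1 had 0 maternal and 149 paternal reads, reverse embryo 2 had 0 and 56, reverse embryo 3 had 0 and 15, reverse embryo 5 had 1 and 25, and reverse embryo 7 had 0 and 24. The paternal allele thus had more reads in 8 of 8 embryos, whether it was cast (forward) or B6 (reverse), as the plot of reads per allele shows. With 0 maternal reads, a maternal share of up to 2.01% is allowed in reverse embryo 1, 5.36% in reverse embryo 2, 20% in reverse embryo 3 and 12.5% in reverse embryo 7. These limits, and all intervals given for shares, cover counting error only, since reads without molecular identifiers are not independent molecules.

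**Figure D1:**
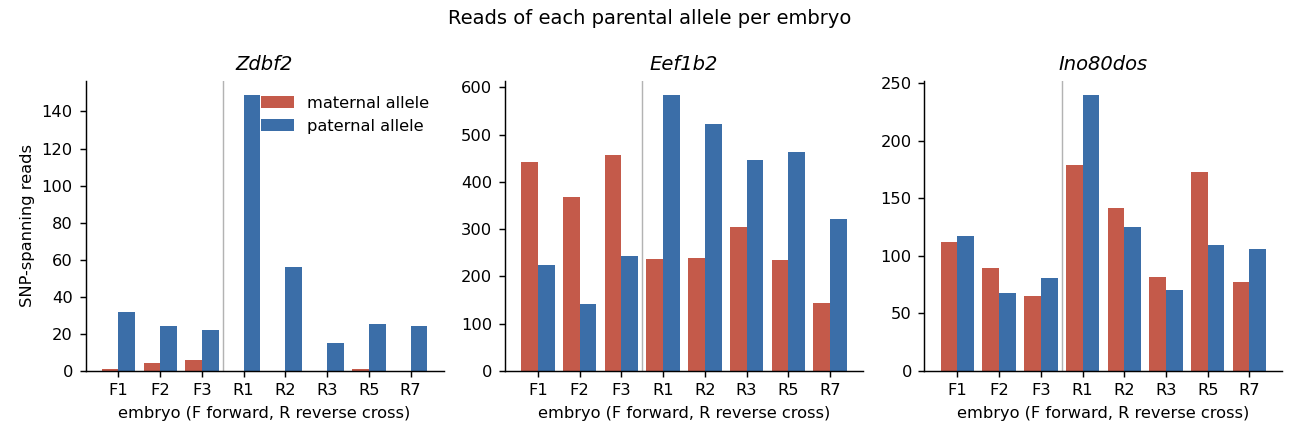
SNP-spanning reads (y axis, a separate linear scale for each gene) of the maternal (red) and paternal (blue) allele in each embryo of the forward (F) and reverse (R) cross. The paternal allele of Zdbf2 was the higher one in all 8 embryos, the higher allele of Eef1b2 changed parent between the crosses, and that of Ino80dos varied within each cross.

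In the fit across all autosomal genes, the paternal allele of Zdbf2 exceeded the maternal one by 4.48 ± 0.617 on the log2 scale (SE, 95% interval 3.202 to 5.76, 22.3-fold; edgeR quasi-likelihood test, Benjamini-Hochberg adjusted p = 8.86e-05 over 12566 genes tested). Of all genes tested, 1.11% were called toward the paternal allele at an adjusted p of at most 0.1. Under the 16 alternatives the difference ranged from 3.67 to 5.04 with adjusted p from 1.13e-12 to 0.00259, the smallest value being that without both forward embryo 1 and reverse embryo 1. Zdbf2 also met the criteria on direction, size and ratio that the study set for blastocyst-imprinted expression. Besides the call, these ask for 70:30 or a stronger ratio in no fewer than 60% of embryos, separately for each cross. They were met toward the paternal allele by 0.74% of the genes tested, and those for skewed expression, which Zdbf2 also met, by 0.883%. The call was that of edgeR, and the study's filters for robust expression and for reads assigned to 1 transcript were not applied. Among the 139 genes called toward the paternal allele, 56 had a larger difference than Zdbf2.

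Of the Zdbf2 reads, 12.9% ± 9.28 (SD, n = 3) were B6 in forward embryos and 99.2% ± 1.72 (SD, n = 5) in reverse embryos. The groups did not overlap (exact two-sided permutation test, p = 0.0357, the smallest p that 3 against 5 embryos allow). How many of all genes had groups without overlap was not counted. Without any 1 embryo the design can no longer reach 0.05, and the p was 0.0571 or 0.0952.

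Pooled over embryos, a larger share of the Zdbf2 reads was maternal in the forward than in the reverse cross, although single embryos overlapped (3.03% in forward embryo 1 and 3.85% in reverse embryo 5). In the forward cross, where the maternal allele is B6, 11 of 89 reads were maternal (12.4%, 95% Wilson interval 7.04 to 20.8), and the ratio of paternal to maternal reads was 7.09 (95% exact interval 3.75 to 14.8). In the reverse cross, where it is cast, 1 of 270 was maternal (0.370%, interval 0.0654 to 2.07), a ratio of 269 with a counting interval of 47.9 to 10664. In the same fit, the cast allele of Zdbf2 stood at -1.18 ± 0.567 against the B6 allele (log2, SE; edgeR, adjusted p = 0.210), which did not pass the threshold. This term is also the test of whether the parental difference is of equal size in both crosses, and it corresponds to parental differences of 3.30 (forward) and 5.66 (reverse). With embryo as a block, which pairs its alleles, it was -1.89 with an adjusted p of 0.0266 (edgeR), past the threshold, and without reverse embryo 1 it was -0.57 with an adjusted p of 0.530.

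The maternal share of Zdbf2 was 3.03, 14.3 and 21.4% in forward embryos 1, 2 and 3 (1, 4 and 6 reads), which had 1402, 47 and 65 maternal reads of the macrophage markers. The reverse embryos had 0 or 1 maternal Zdbf2 read and 1 to 6 maternal reads of these markers. Over the 8 other listed paternally expressed genes that were called, the maternal share was 10.03, 6.42 and 2.74% in forward embryos 1, 2 and 3 and 0.208 to 2.15% in the reverse embryos. Snrpn and Snurf, which share a transcript, were both counted in it. The parts of macrophage material and of the alignment to mm10 in the maternal reads of Zdbf2 were not tested.

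**Figure D2:**
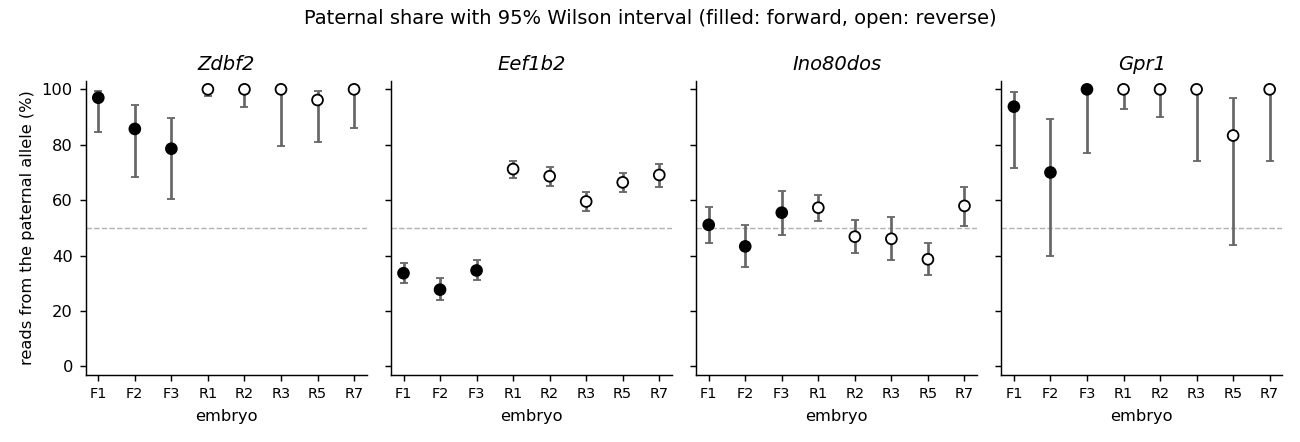
Share of reads from the paternal allele (percent, y axis) in each forward (filled) and reverse (open) embryo, with 95% Wilson intervals and a dashed line at 50%. Zdbf2 and Gpr1 lay at 70% or above in all 8 embryos, Eef1b2 lay below 50% in the 3 forward and above it in the 5 reverse embryos, and Ino80dos lay on both sides of 50% in each cross.

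Eef1b2 was read from both alleles, and the higher allele was B6 in every embryo. Forward embryos 1, 2 and 3 had 442, 368 and 457 maternal (B6) reads beside 224, 141 and 242 paternal (cast) reads. Reverse embryos 1, 2, 3, 5 and 7 had 584, 523, 447, 463 and 322 paternal (B6) reads beside 236, 239, 304, 234 and 144 maternal (cast) reads. The forward embryos therefore had a paternal share of 31.99% ± 3.74 (SD, n = 3) and the reverse embryos one of 67.0% ± 4.50 (SD, n = 5). The B6 shares of 68.0% ± 3.74 and 67.0% ± 4.50 overlapped (exact two-sided permutation test, p = 0.857). Of all reads of these embryos, 57.4 to 58.3% were B6. The difference of B6 shares, forward minus reverse, was 1.03 percentage points.

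The parental difference of Eef1b2 was -0.06 ± 0.217 on the log2 scale (SE, 95% interval -0.51 to 0.39; edgeR, adjusted p = 1). Its cast allele stood at -0.70 ± 0.218 against the B6 allele (SE; edgeR, adjusted p = 0.0398), 1.62-fold toward B6, as measured against the excess of B6 reads in these libraries, which the scaling removes. Among all genes tested 15.4% were called for strain and 10.9% toward B6, and 1358 of the 1372 genes called toward B6 had a larger difference than Eef1b2. The call ended (edgeR, adjusted p = 0.105, 0.179 and 0.110) without forward embryos 1, 2 and 3 respectively, and without the filter on low counts (0.121), while the difference stayed between -0.63 and -1.03 under all 15 alternatives. With a term for each embryo the adjusted p was 2.32e-05. In the GENCODE transcripts, 1 other gene held a stretch of at least 200 bases with at least 90% identity to Eef1b2, the chromosome 3 pseudogene Gm43712 (99.2% over 278 bases), and reads that mapped to several places had been left out by the authors.

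Ino80dos was read from both alleles with no fixed order of parent or strain. Forward embryo 1 had 112 maternal and 117 paternal reads, forward embryo 2 had 89 and 68, and forward embryo 3 had 65 and 81. Reverse embryos 1, 2, 3, 5 and 7 had 179, 142, 82, 173 and 77 maternal beside 240, 125, 70, 109 and 106 paternal reads. The paternal allele was the higher one in 4 of 8 embryos, and its share was 49.96% ± 6.16 (SD, n = 3) for forward and 49.3% ± 8.19 (SD, n = 5) for reverse embryos.

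Among the reverse embryos the paternal share of Ino80dos ranged from 38.7% in embryo 5 (95% Wilson interval 33.2 to 44.5) to 57.9% in embryo 7 (50.7 to 64.8), and the paternal (B6) share of all reads in these 5 embryos was 57.4 to 58.1%. In reverse embryos 1, 2, 3, 5 and 7 it was 57.3, 46.8, 46.1, 38.7 and 57.9%. The antisense neighbours that share exonic bases with Ino80dos were at 48.0, 49.4, 42.6, 35.6 and 47.5% (Ino80d) and at 54.7, 40.1, 44.4, 40 and 51.9% (Ndufs1, a subunit of respiratory complex I) in the same order. Over all embryos, the parental difference of Ino80dos was -0.03 ± 0.276 (log2, SE, 95% interval -0.60 to 0.54; edgeR, adjusted p = 1) and the cast allele stood at 0.34 ± 0.275 against B6 (adjusted p = 0.518). With 1 library size for both alleles of an embryo, which leaves the excess of B6 reads in place and moves the median of all genes from -0.06 to -0.39, the strain difference of Ino80dos was -0.00107. The B6 share was 50.04% ± 6.16 (SD, n = 3) and 49.3% ± 8.19 (SD, n = 5; exact two-sided permutation test, p = 0.964).

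The levels of the 3 genes, summed over both alleles and scaled to counts for each 1000000 reads (CPM), did not pass the test between the crosses. They are not compared between genes, since the number of SNPs per transcript sets how many reads can be counted. For Zdbf2 the level was 20.2, 25.1 and 23.1 CPM in forward embryos 1, 2 and 3, and 89.5, 35.4, 12.4, 19.9 and 23.3 CPM in reverse embryos 1, 2, 3, 5 and 7. Reverse embryo 1 stood above the other 7 embryos, and the other reverse embryos lay on both sides of the forward ones. Reverse exceeded forward by 0.68 ± 0.570 (log2, SE, 95% interval -0.55 to 1.90; edgeR, adjusted p = 0.804), and by 0.02 without reverse embryo 1. At this test 0.103% of all genes were called, 13 of 12566. Reverse embryo 1 is also the embryo with the low trophectoderm marker sum, and the part of this in its Zdbf2 level was not tested. In RNA of whole embryos, fewer cells of a type and less RNA per cell cannot be told apart.

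**Figure D3:**
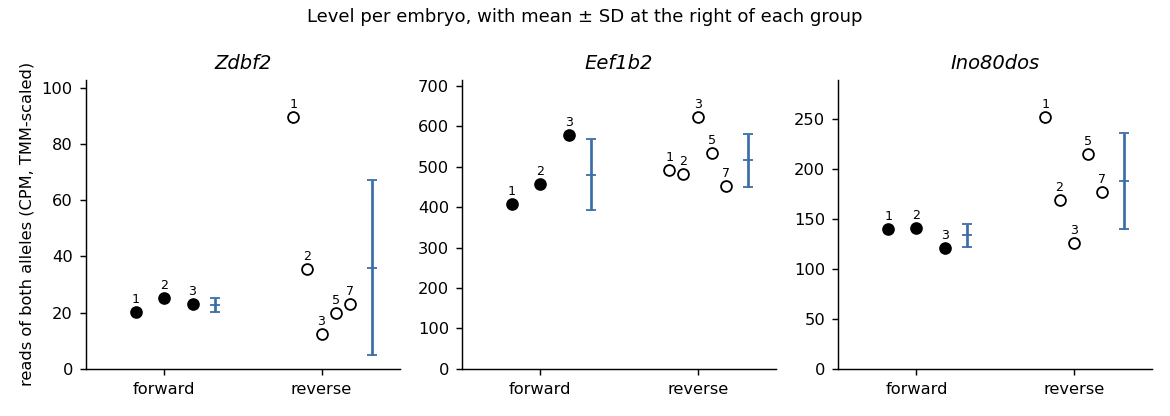
Level of each gene (CPM of both alleles after TMM scaling, y axis from 0) in each forward (filled) and reverse (open) embryo, numbered as in the labels, with the mean and SD of each group in blue. Reverse embryo 1 was the highest embryo for Zdbf2 (89.5 CPM) and for Ino80dos (252 CPM) but not for Eef1b2 (492 CPM).

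Eef1b2 reached 480.0 ± 87.5 CPM (SD, n = 3) in forward embryos and 516 ± 65.7 CPM (SD, n = 5) in reverse embryos, a difference of 0.10 ± 0.295 (log2, SE, 95% interval -0.53 to 0.74; edgeR, adjusted p = 0.965). Ino80dos reached 134 ± 11.4 CPM (SD, n = 3) and 188 ± 47.8 CPM (SD, n = 5), a difference of 0.49 ± 0.309 (95% interval -0.17 to 1.154; edgeR, adjusted p = 0.738). The highest level over all embryos was 7.21 times the lowest for Zdbf2, 1.53 times for Eef1b2 and 2.09 times for Ino80dos.

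Within 1 Mb of Zdbf2 on either side, the table holds 22 genes, of which 11 had enough reads to be tested (at least 10 in 1 allele library). Of these 11, Zdbf2 and Gpr1 were called toward the paternal allele and 0 toward the maternal allele (edgeR; 1.11% and 0.31% of all genes). The parental differences of the 8 tested genes that are not Zdbf2, Eef1b2 or Ino80dos had a median of 0.51 on the log2 scale, also with 1 gene that had 0 maternal reads set to its bound, against -0.01 over all genes tested. That median lies between Adam23 (0.46 ± 0.984, SE) and Klf7 (0.57 ± 0.722, SE), whose errors exceed their differences. Over all 11 tested genes it was 0.46, the value of Adam23.

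Gpr1 gave 15, 7 and 13 paternal beside 1, 3 and 0 maternal reads in forward embryos 1, 2 and 3. In the reverse embryos 1, 2, 3, 5 and 7 it gave 51, 34, 11, 5 and 11 paternal reads, with 1 maternal read in embryo 5 and 0 in the others. The paternal allele was the higher one in 8 of 8 embryos, with a difference of 4.33 ± 0.727 (log2, SE; edgeR, adjusted p = 0.00115). Without forward embryo 1 and reverse embryo 1 the difference was 3.82 (edgeR, adjusted p = 0.0335). In RefSeq its span overlaps that of Zdbf2 on the opposite strand. In GENCODE, whose Zdbf2 span leaves out the upstream start, the spans do not overlap and share 0 exonic bases. That 0 therefore does not cover transcripts from the upstream start, which lies inside the span of Gpr1. Because the protocol does not mark strand, the Gpr1 row may hold reads of such a transcript, and this was not tested. When 10 reads were asked of every embryo, Gpr1 was left out for its 6 reads in reverse embryo 5.

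Inside the span of Zdbf2, 1700039I01Rik on the opposite strand gave 11 paternal and 0 maternal reads (a maternal share of up to 27.3% is allowed) and did not pass the test (edgeR, adjusted p = 0.927). On the upstream side, the parental difference was 0.02 ± 0.217 for Ndufs1, -0.32 ± 0.256 for Ino80d and 0.19 ± 0.852 for Nrp2, a receptor for semaphorins and VEGF (log2, SE; edgeR, adjusted p = 1 for each). Ino80d had more maternal than paternal reads in 8 of 8 embryos (a paternal share of 35.6 to 49.4%), and with embryo as a block its difference was -0.32 ± 0.181 (edgeR, adjusted p = 0.673). On the downstream side, Adam23, an adhesion protein of the ADAM family, stood at 0.46 ± 0.984, Fastkd2, a mitochondrial RNA-binding protein, at 0.60 ± 0.510 and Klf7, a Kruppel-like transcription factor, at 0.57 ± 0.722 (adjusted p = 1 for each). In the order of the chromosome, the call toward the paternal allele thus held for Gpr1 and Zdbf2 and was not made for Eef1b2, whose span ends 19.9 kb before that of Zdbf2, or for Adam23, whose span begins 131 kb after it.

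Adam23 differed in its higher allele between embryos of 1 cross. It gave 5, 0 and 0 maternal beside 37, 6 and 1 paternal reads in forward embryos 1, 2 and 3, and 77, 4, 4, 5 and 17 maternal beside 0, 0, 10, 19 and 4 paternal reads in reverse embryos 1, 2, 3, 5 and 7. In the reverse cross the maternal allele was thus the higher one in embryos 1, 2 and 7 and the paternal allele in embryos 3 and 5.

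**Figure D4:**
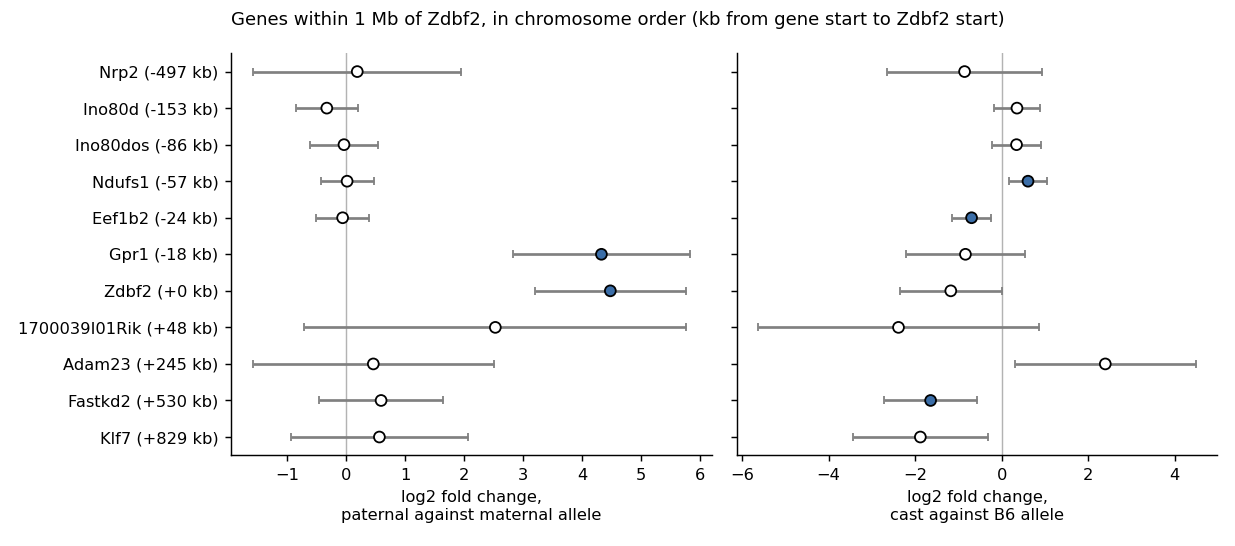
Log2 fold change (x axes) of the paternal against the maternal allele (left) and of the cast against the B6 allele (right) for the 11 tested genes of the window, in chromosome order with the distance from the start of Zdbf2. Bars are 95% intervals and filled points passed an adjusted p of at most 0.1, which held for Gpr1 and Zdbf2 on the left and for Ndufs1, Eef1b2 and Fastkd2 on the right.

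By strain, 3 of the 11 genes were called (15.4% of all genes), 1 without forward embryo 1, 2 of 10 tested without both forward embryo 1 and reverse embryo 1, and 6 with embryo as a block (25.6% of all genes), which added Zdbf2, Adam23 and Klf7. Eef1b2 (above) and Fastkd2 were higher on the B6 allele, the latter at -1.64 ± 0.520 (log2, cast against B6, SE; edgeR, adjusted p = 0.0425). Ndufs1, which begins next to Eef1b2 on the opposite strand, was higher on the cast allele, at 0.61 ± 0.217 (edgeR, adjusted p = 0.0770), and was not called without forward embryo 1 (adjusted p = 0.272).

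Zdbf2 belongs to a list of 19 genes known for paternal expression at regions methylated in the oocyte, of which 17 were in the table and 13 could be tested. Of the 13, 9 were called toward the paternal allele and 0 toward the maternal allele, where 1.11% and 0.31% of all genes were called. Among the 9, Snrpn and Snurf share a transcript (196 and 185 paternal reads), so the 9 are not all separate loci. Those not called were Usp29 (51 maternal and 56 paternal reads), Inpp5f (120 and 160), Plagl1 (0 and 49) and Sgce (1 and 13). Usp29 and Inpp5f were thus read from both alleles, and Plagl1 and Sgce had few reads. The median difference was 4.48 on the log2 scale, which is the value of Zdbf2 itself, 4.63 without Zdbf2, and 4.39 with the 4 genes that had 0 maternal reads set to a bound of 3 reads over all embryos, against -0.01 over all genes tested. The list was chosen with results of these data known and is no independent evidence of its direction. The count was also 9 without forward embryo 1 and without reverse embryo 1, and 8 of 12 tested without both.

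Among the 9, Kcnq1ot1, the noncoding RNA of the Kcnq1 domain, had 1422 paternal and 36 maternal reads, with a difference of 5.39 ± 0.605 (log2, SE; edgeR, adjusted p = 5.61e-06). Fkbp6, a co-chaperone known from the germ line, had 1193 and 57 reads and a difference of 4.38 ± 0.536 (adjusted p = 1.90e-05). Airn, the noncoding RNA antisense to Igf2r, differed by 4.13, Snrpn, which encodes a splicing protein, by 4.39, and the zinc finger gene Peg3 by 6.05. Nespas, the antisense RNA at Gnas, had 87 paternal and 0 maternal reads (a maternal share of up to 3.45% is allowed). Mcts2, a retrogene, had 126 paternal and 0 maternal reads (a maternal share of up to 2.38% is allowed), and Snurf, which shares a transcript with Snrpn, had 185 and 0 (up to 1.62%). By the fitted value Zdbf2 lay between Snrpn and Kcnq1ot1, and its 95% interval overlapped those of both. By strain, 1 of the 13 genes was called (15.4% of all genes), Fkbp6 at -1.62 (log2, cast against B6; edgeR, adjusted p = 0.0363), and with embryo as a block 3 were, with Zdbf2 and Snrpn, where the block called 25.6% of all genes.

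**Figure D5:**
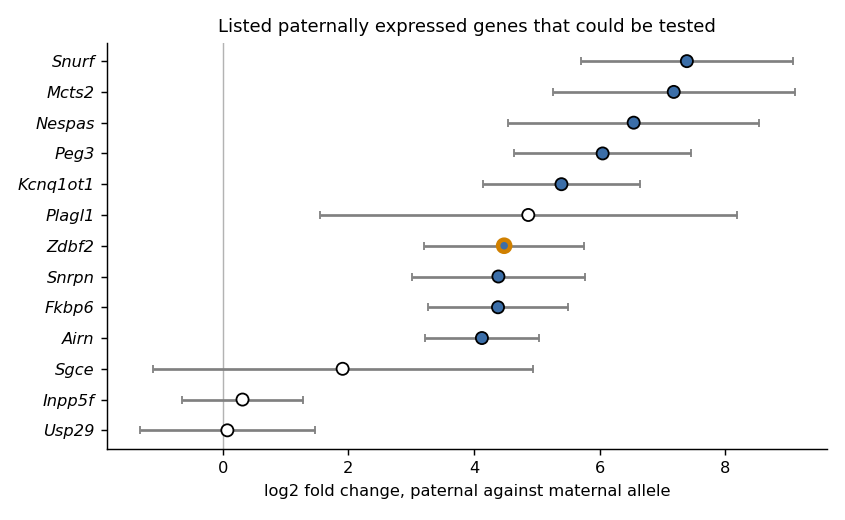
Log2 fold change of the paternal against the maternal allele (x axis) with 95% intervals for the 13 listed paternally expressed genes that could be tested. Filled points passed an adjusted p of at most 0.1, which 9 genes did, and Zdbf2 (orange ring) stood at 4.48.

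Of the 13 genes listed for the maintenance and setting of imprints, all were tested and 0 were called by parent (edgeR; 178 of 12566 genes, 1.42%, were called in either direction), with a median parental difference of 0.02. With embryo as a block, which called 3.11% of all genes by parent, 1 of the 13 was called, the maintenance methyltransferase Dnmt1, toward the paternal allele (1.05 ± 0.242, SE; adjusted p = 0.0134, against 0.99 ± 0.348 and 0.307 without the block). By strain, 2 of the 13 were called, the same share as over all genes (15.4%), and 5 were with the block (25.6% of all genes), 4 without reverse embryo 1 (20.6%) and 3 without both embryos that stand apart (14.9%). The 2 were Dppa3, which protects methylation in the early embryo, at -1.58 (adjusted p = 0.00107) and Uhrf1, the partner of the maintenance methyltransferase, at -1.92 (adjusted p = 4.76e-06). Trim28, the corepressor recruited by ZFP57, had 4022 maternal and 3830 paternal reads.

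Of the 8 genes listed with Eef1b2 (the eEF1 complex and its partners), 6 were tested, 0 were called by parent (1.42% of all genes), and the median parental difference was 0.02. By strain 3 of the 6 were called, all toward B6 (10.9% of all genes). With embryo as a block 4 were called (25.6% of all genes in either direction), 3 toward B6 and 1 toward cast. The latter was Eef1e1, at 0.50 with the block (edgeR, adjusted p = 0.0119). Without forward embryo 1, 2 were called, and Eef1b2 was not. The other 2 of the 3 were Eef1g, another subunit of the exchange factor, at -1.18 (edgeR, adjusted p = 0.00229) and Eef1a1, the elongation factor itself, at -6.71 (adjusted p = 6.04e-11). Eef1a1 has many near-identical processed copies, and their part in this uncertain value was not tested. Eef1d, a further subunit and the gene of this list with the most reads, had 4280 maternal and 4556 paternal reads and stood at -0.08 by strain (adjusted p = 0.935).

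Of the 15 INO80 complex genes listed with Ino80dos, 13 were tested, 0 were called by parent (1.42% of all genes) and the median parental difference was -0.05. By strain 2 of the 13 were called, the same share as over all genes (15.4%), and 3 were with embryo as a block (25.6%). The 2 were Mcrs1 toward B6 at -3.31 (edgeR, adjusted p = 8.13e-05) and Ino80c toward cast at 1.14 (adjusted p = 0.00871). Ruvbl2, an ATPase of the complex, had the most reads of this list, 784 maternal and 887 paternal.

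The genes most like each of the 3 in paternal share over the 8 embryos, by mean absolute difference among 8407 genes with at least 5 reads in every embryo, were Smoc1, Gm35599, Platr20, Dubr and Abcc4 for Zdbf2, at 3.24 to 4.26 percentage points, none of them on chromosome 1. For Eef1b2 they were Calcoco2, Serbp1, Rpl4, Gabarapl2 and Atp5f1, at 2.16 to 2.86 percentage points, and for Ino80dos Cct6a, Platr14, Acin1, Pibf1 and Fam192a, at 2.87 to 3.397 percentage points. The first 5 were all called toward the paternal allele (edgeR, adjusted p from 1.00e-06 to 0.000281), and the other 10 had an adjusted p of 1. Since the genes were picked by their paternal share in the same embryos, these calls follow from the choice and are no separate result.

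Among the genes most like Zdbf2 in level over the 8 embryos were Vps13b, Clasp1, Tuft1 and Rad51b, with Pearson r of log2 CPM from 0.982 to 0.991 among 5609 genes. Each of these embryos is 1 library, and without reverse embryos 1 and 3, which lay farthest from the median of Zdbf2, r was 0.880 to 0.989 over 6 embryos. These 4 genes were read from both alleles, with pooled paternal shares of 43.2 to 56.2%. For Eef1b2 the nearest genes in level were Snx5, Pex19, Cops3, Prpf39 and Vamp3 (r from 0.912 to 0.951). Without reverse embryo 3 and forward embryo 1 their r was 0.754 to 0.912. For Ino80dos they were Trim37, Slc35a3, Pcmtd1, Bcap29 and Kalrn (r from 0.953 to 0.979), with 0.840 to 0.990 without reverse embryos 1 and 5. For all 3 genes these are the highest of 5608 or 5609 candidates over 8 embryos, and whether r exceeds what chance gives was not tested.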

How the data were processed

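Single E3.5 blastocysts (3 of the forward and 5 of the reverse cross) were sequenced with SMART-Seq2. Per the labels and the study's methods, the authors aligned reads to mm10 with STAR (2.5.2b in the submitters' processing notes, which also name SAMtools 1.9-92 and bedtools), dropped reads mapping to several places, removed 2 low-quality samples, and deposited raw counts from Allelome.Pro, 1 for every gene, embryo and strain allele, of the reads that span a SNP. Counting strand and annotation release are not given in the sources used here. The totals were 1060063 to 1632695 reads per embryo, and the precision of a share follows from its reads.

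The 3 genes and all lists were chosen with earlier results of these data known. Symbols were matched to GENCODE M21 (18286 genes), RefSeq (2999) or a synonym (417), 1108 were not matched, and 21057 autosomal genes remained. The 16 allele libraries were fitted with edgeR 4.0.16 (R 4.3.3, limma 3.58.1): TMM factors, strain and parent as terms, the quasi-likelihood test, genes reaching 10 reads in any allele library, Benjamini-Hochberg adjustment over 12566 genes, and a call at an adjusted p of at most 0.1. The study's own test was DESeq2 (here 1.42.0, an alternative). Cross differences were fitted on the summed alleles. Embryo levels are CPM after TMM scaling. Shares were compared with exact permutation tests (scipy) over embryos with at least 5 reads. Labels give embryos and not litters, so no p-value measures a spread between litters. The main parental and strain fits hold no term for the embryo, and their p-values measure the spread among the 16 allele libraries. Those of the cross fits and permutation tests measure the spread between these embryos. Both alleles come from the same embryo, and their deviations from the group means correlated by 0.132 to 0.676 in each of the 8 embryos. The scripts were tested on simulated data. Named were the 3 genes, tested neighbours within 1 Mb, list genes that were called or had the most reads (2 per list), and the 5 genes most alike in level (log2 CPM, prior count 2, at least 20 reads in every embryo) and in paternal share. Of the genes most alike in level, 1 is not reported here.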

Additional observations from a re-analysis of the deposited data

Results flagged for a closer look

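In the reverse cross, the paternal share of Zdbf2 was lowest in embryo 5, at 96.2% (1 maternal and 25 paternal reads), against 100% in the other 4 embryos, which makes it the sample that stands apart by Dixon's criterion. The same embryo was set apart for Gpr1, with a paternal share of 83.3% (1 maternal and 5 paternal reads) against 100% in the others. In each case 1 read separates the embryo from the rest. With the other 4 embryos tied at 100%, any maternal read in the remaining embryo sets it apart. The criterion's chance rate of about 1 in 20 therefore does not apply to these shares. Of the 8 series of values examined, 2 had an embryo set apart.

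The strain term of Eef1b2 was -0.70 on the log2 scale (edgeR, adjusted p = 0.0398). It corresponds to parental differences of -0.75 (forward) and 0.64 (reverse), and is the higher B6 allele described above. The paternal allele was the lower one in 3 of 3 forward embryos and the higher one in 5 of 5 reverse embryos. Over the alternatives the adjusted p of this term ranged from 2.32e-05 to 0.179.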

How the results depend on the processing

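The parental call of Zdbf2 held under all 16 alternatives, and without 1 embryo its difference lay between 3.95 and 5.04. Its strain term passed the threshold with 1 library size per embryo (-1.49, adjusted p = 0.0808; edgeR) and with the block for each embryo (-1.89, adjusted p = 0.0266), and lay between -1.40 and -0.57 without 1 embryo. Its cross difference turned to -0.0789 without both forward embryo 1 and reverse embryo 1, an alternative chosen after seeing the data, and lay between 0.02 and 0.90 without 1 embryo. Its difference in B6 share, forward minus reverse, lay between -90.6 and -81.4 percentage points without 1 embryo, where the fewer embryos no longer allow a p under 0.05.

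The strain call of Eef1b2 ended without a filter on low counts (-0.71, adjusted p = 0.121; edgeR) and lay between -0.77 and -0.63 without 1 embryo. Its parental difference was 0.14 without the strain term and -0.11 to 0.026 without 1 embryo. Its cross difference was -0.00283 to 0.26 and its difference in B6 share -1.11 to 2.35 percentage points without 1 embryo. For Ino80dos the strain term was -0.00107 with 1 library size per embryo, the parental difference -0.10 to 0.0749 and the difference in B6 share -2.63 to 3.45 percentage points without 1 embryo.

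The number of genes called by parent (178) was 406 without a filter, 75 with at least 10 reads in every embryo and 391 with the block for each embryo. The number called by strain (1935) was 1064 with at least 10 reads in every embryo, 3212 with the block, and 1206 to 2457 without 1 embryo. The number called between crosses (13) was 130 with DESeq2, 143 without a filter, 40 without both forward embryo 1 and reverse embryo 1, 3 to 163 without 1 embryo, the last without reverse embryo 1, and 0 in edgeR with at least 10 reads in every embryo, where 513 genes had an unadjusted p under 0.05. With at least 10 reads in every embryo, 1 gene of the window was called by parent, since Gpr1 was not tested. Where no reason is named, the cause was not tested. The embryo numbers do not pair the crosses (correlation of deviations 0.273, 0.0085 and 0.245 for numbers 1, 2 and 3), and with the number as a block 10 genes were called between crosses, with 0.63 for Zdbf2, 0.15 for Eef1b2 and 0.39 for Ino80dos. The block for each embryo changed no call of Eef1b2 or Ino80dos. Counts of list genes without the 2 embryos or with this block were chosen after seeing the data. Zdbf2's maternal reads (12 in all) limit its maternal share to the intervals given.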
